A study of Homo sapiens with 7 samples.

Results

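The binding sites of the transcription factor RUNX2 were set against the histone mark H3K27ac within 1 T-cell acute lymphoblastic leukemia (T-ALL) line, PER-117. This experiment comprised 2 of the 7 samples of a chromatin immunoprecipitation sequencing (ChIP-seq) series on RUNX2 in T-ALL: 1 PER-117 library precipitated with a RUNX2 antibody and 1 with an H3K27ac antibody. PER-117 cells carried no labelled treatment or genetic change and grew with 10% fetal bovine serum, and both libraries came from chromatin fixed for 10 min with 1.1% formaldehyde. The sources used here do not say whether both libraries came from 1 culture. Inputs and the KARPAS-45 libraries were not used. With 1 library per antibody there was no replicate and no test. Every difference below is one between 2 peak lists, and intervals in brackets are Wilson 95% intervals that cover counting error only.

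On chromosomes 1 to 22 and X the RUNX2 list held 21027 peaks, with a median width of 322 bp, and the H3K27ac list held 53263 regions that covered 76.2 Mb, with a median width of 816 bp. Each of 19974 protein-coding genes was given a window of its annotated span plus 10 kb on either side, and the RUNX2 peaks and acetylated bases in that window were counted. A gene was placed in the class "both" when its window held at least 1 RUNX2 peak and at least 1 acetylated base, in "RUNX2 alone" or "H3K27ac alone" when it held only that one, and otherwise in "neither". The files hold no read totals, and a missing mark means only that no peak was called. Fold enrichment is the authors' value for a single peak and ranks peaks within a list only.

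RUNX2 is a Runt-domain factor that binds DNA together with the partner subunit CBFB and is best known for driving bone formation. Its relatives RUNX1 and RUNX3 act in blood stem cells and T cells and read the same short DNA element. Such factors can recruit both coactivators and corepressors. H3K27ac marks active promoters and enhancers, where acetyltransferases such as EP300 and CREBBP deposit it, so its presence at a bound site separates sites in active chromatin from the rest.

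The label of the line was checked on marker genes. H3K27ac lay in the windows of 7 of 8 T-lineage markers, with a median of 7.56 kb, and the exception was CD5. It also lay in the windows of 4 of 5 B-lineage markers (median 1.95 kb), 3 of 5 myeloid markers (1.68 kb), 3 of 5 erythroid markers (0.841 kb), 2 of 4 NK markers (4.41 kb) and 1 of 5 non-blood markers (0 kb). The granulocyte enzyme MPO, the beta-globin gene HBB, the B-cell gene MS4A1 and the liver gene ALB had no acetylated base. Over all protein-coding genes 69.4% had an acetylated base in the window.

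Promoters where a RUNX2 summit fell just before an annotated gene start are shown first, since the bases around the summit can be read there. Which bases RUNX2 bound was not tested. Each sequence gives the 250 bases before the start, from RefSeq (GRCh38.p14), 5′ to 3′ along the gene's strand. Capitals mark the core RUNX element TGTGGT and its variant TGCGGT, on either strand (ACCACA and ACCGCA in reverse). The first 3 are the promoters whose RUNX2 summit had the highest fold enrichment while the promoter overlapped H3K27ac.
GSPT1: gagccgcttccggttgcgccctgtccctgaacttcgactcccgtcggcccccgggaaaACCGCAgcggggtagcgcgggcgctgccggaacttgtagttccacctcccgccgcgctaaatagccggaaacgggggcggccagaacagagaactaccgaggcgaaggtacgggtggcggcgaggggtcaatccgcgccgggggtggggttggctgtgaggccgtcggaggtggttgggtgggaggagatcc
PSIP1: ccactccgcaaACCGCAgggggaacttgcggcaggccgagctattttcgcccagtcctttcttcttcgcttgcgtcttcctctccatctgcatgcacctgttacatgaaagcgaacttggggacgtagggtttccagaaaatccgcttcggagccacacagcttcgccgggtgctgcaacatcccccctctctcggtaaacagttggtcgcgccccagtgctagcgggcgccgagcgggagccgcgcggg
FLCN: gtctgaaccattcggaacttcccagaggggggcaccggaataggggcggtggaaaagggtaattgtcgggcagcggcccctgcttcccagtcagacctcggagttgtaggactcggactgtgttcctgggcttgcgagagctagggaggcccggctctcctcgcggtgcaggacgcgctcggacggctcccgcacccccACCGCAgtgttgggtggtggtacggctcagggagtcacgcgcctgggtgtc
The GSPT1 sequence (chr16:11915957-11916206, minus strand) belongs to a translation termination factor. Its summit, with a fold enrichment of 57.1, lay 140 bp before the start and 47 bp from the capitalised element. PSIP1 (chr9:15510971-15511220, minus strand) encodes the chromatin tether of KMT2A complexes, and its summit of 51.7 lay 193 bp before the start and 41 bp from the element. FLCN (chr17:17237169-17237418, minus strand), folliculin, had a summit of 39.1 at 114 bp before the start and 63 bp from the element.

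The next 3 promoters had the strongest RUNX2 summits among promoters that did not overlap H3K27ac.
DIABLO: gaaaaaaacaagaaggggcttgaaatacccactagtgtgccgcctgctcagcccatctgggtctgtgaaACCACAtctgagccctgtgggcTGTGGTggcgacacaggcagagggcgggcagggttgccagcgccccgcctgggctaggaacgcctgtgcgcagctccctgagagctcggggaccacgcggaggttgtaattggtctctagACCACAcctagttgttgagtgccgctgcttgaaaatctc
LGALS2: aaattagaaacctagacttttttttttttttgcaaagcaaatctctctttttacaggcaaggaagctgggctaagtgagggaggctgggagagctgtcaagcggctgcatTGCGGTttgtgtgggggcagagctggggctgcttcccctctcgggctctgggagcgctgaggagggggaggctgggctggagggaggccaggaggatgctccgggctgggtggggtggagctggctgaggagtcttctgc
MAP1A: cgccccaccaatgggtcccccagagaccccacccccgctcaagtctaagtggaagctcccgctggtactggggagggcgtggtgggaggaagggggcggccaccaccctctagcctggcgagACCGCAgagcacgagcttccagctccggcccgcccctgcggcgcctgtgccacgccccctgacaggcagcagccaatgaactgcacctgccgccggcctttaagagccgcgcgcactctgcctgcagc
DIABLO (chr12:122227457-122227706, minus strand) encodes a mitochondrial protein that relieves the block on caspases. It held 3 copies of the core element, and its summit of 26.4 lay 164 bp before the start and 5 bp from the nearest copy. The closest H3K27ac region lay 1510 bp away. LGALS2 (chr22:37580088-37580337, minus strand), a galectin, held 1 variant element 14 bp from a summit of 14.4, and MAP1A (chr15:43510704-43510953, plus strand), a microtubule-binding protein of neurons, held 1 at 11 bp from a summit of 13.7. LGALS2 belonged to the class RUNX2 alone, whereas DIABLO and MAP1A had H3K27ac elsewhere in the window.

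For contrast, CD1A, a lipid-presenting molecule of cortical thymocytes, is shown as a T-lineage gene of the class RUNX2 alone, chosen after its values were seen. ZMYND11, a chromatin reader, had the promoter region of highest −log10 q (109) among genes with H3K27ac alone.
CD1A: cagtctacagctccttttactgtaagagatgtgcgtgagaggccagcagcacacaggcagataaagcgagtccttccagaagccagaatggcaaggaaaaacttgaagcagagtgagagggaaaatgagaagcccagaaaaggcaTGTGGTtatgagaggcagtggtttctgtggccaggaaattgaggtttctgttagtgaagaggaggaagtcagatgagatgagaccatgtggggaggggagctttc
ZMYND11: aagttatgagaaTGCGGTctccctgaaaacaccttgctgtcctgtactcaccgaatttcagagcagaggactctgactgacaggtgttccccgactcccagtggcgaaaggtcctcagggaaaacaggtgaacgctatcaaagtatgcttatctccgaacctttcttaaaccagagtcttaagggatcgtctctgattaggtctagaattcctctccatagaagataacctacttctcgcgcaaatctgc
The CD1A promoter (chr1:158248086-158248335, plus strand) held 1 core element 40 bp from a RUNX2 summit of 12.4, which lay 60 bp before the start and 83303 bp from the nearest H3K27ac. The ZMYND11 promoter (chr10:134234-134483, plus strand) held 1 variant element and no RUNX2 peak.

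Of the 19974 genes, 10477 had both marks, 52.5% (51.8 to 53.1). Another 3392 had H3K27ac alone, 17.0% (16.5 to 17.5), 485 had RUNX2 alone, 2.43% (2.22 to 2.65), and 5620 had neither, 28.1% (27.5 to 28.8). RUNX2 without any H3K27ac near the gene was the rarest state: of the 10962 genes with RUNX2 (54.9% of all), 95.6% (95.2 to 95.9) had H3K27ac in the window. In the other direction, of the 13869 genes with H3K27ac, 75.5% (74.8 to 76.3) had RUNX2. Windows of neighbouring genes overlap, and 4914 peaks (23.4%) were counted for more than 1 gene. A further 4445 peaks (21.1%) lay in no window, and 65.4% of those summits were acetylated, against 78.4% of the peaks inside windows.

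Genes with both marks held a median of 2 RUNX2 peaks (quartiles 1 and 3, highest 27) and 4.48 kb of H3K27ac (quartiles 2.36 and 8.69 kb). A single RUNX2 peak stood in 4699 of them (44.9%), and 77 held 10 or more. Genes with H3K27ac alone held less of it, a median of 1.72 kb, and 892 of them (26.3%) held under 1 kb. Only 498 of the genes with both (4.75%) held that little. Genes with RUNX2 alone had 1 peak in 418 of 485 cases (86.2%) and never more than 4. The highest fold enrichment in the window had a median of 5.86 in RUNX2 alone and 6.99 in both, and a gene with more peaks has more chances of a high value. H3K27ac lay within 1 kb of a gene end in 84.1% of the genes with both, in 66.9% of those with H3K27ac alone and in 55.5% of all genes.

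**Figure D1:**
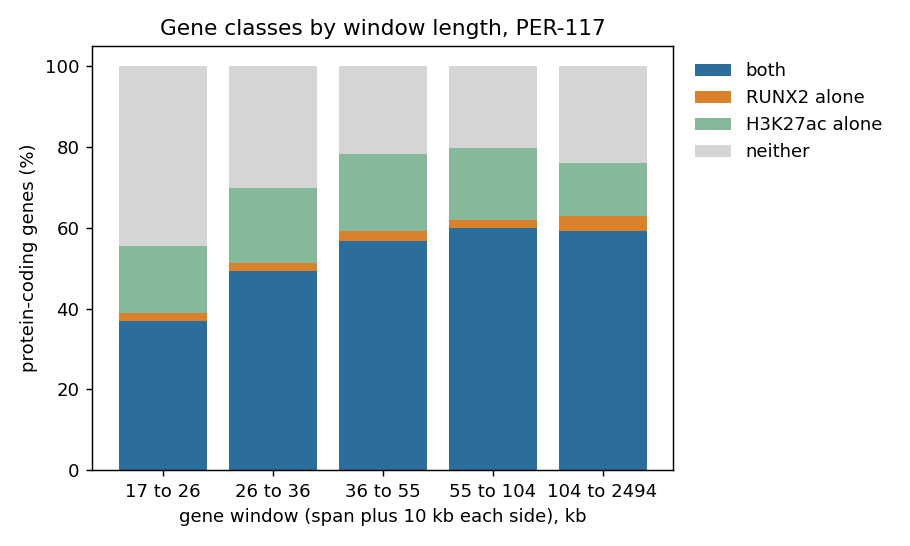
Share of protein-coding genes (y, %) in each of the 4 classes, for 5 equal groups of genes ordered by window length (x, kb). The share with both marks was 36.9% in the shortest windows and 59.2% in the longest, while the share with RUNX2 alone stayed between 1.93% and 3.85%.

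Longer windows had more room for either mark. In the shortest of 5 equal groups of genes (windows of 17.0 to 26.5 kb) 36.9% had both and 44.5% neither, and in the fourth group (55.3 to 104 kb) 60.0% had both and 20.3% neither. RUNX2 alone was most frequent in the longest group, with 154 of 3995 genes (3.85%). Median spans were 30.3 kb for both, 31.6 kb for RUNX2 alone, 22.1 kb for H3K27ac alone and 14.3 kb for neither.

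Within the genes, RUNX2 followed the amount of acetylation. The share with a RUNX2 peak was 7.94% among the 6105 genes with no acetylated base, 35.8% with up to 1 kb, 59.3% with 1 to 2 kb, 77.4% with 2 to 5 kb and 89.5% with 5 to 10 kb. It reached 95.5% of 1637 genes with 10 to 20 kb, 518 of 523 genes with 20 to 50 kb and 79 of 79 with more. Median window lengths rose as well, from 35.1 kb with no acetylated base to 42.7, 44.4, 46.0 and 46.7 kb in the groups up to 10 kb of H3K27ac and 246 kb above 50 kb, and the part of window length in the rise was not tested. Across all genes the number of RUNX2 peaks and the acetylated kb had a Spearman correlation of 0.75 (n = 19974 genes). Among genes with both it was 0.58, and between 0.47 and 0.68 within the 5 length groups. Genes are not independent, since neighbours share peaks and long windows share length, and this is a description.

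**Figure D2:**
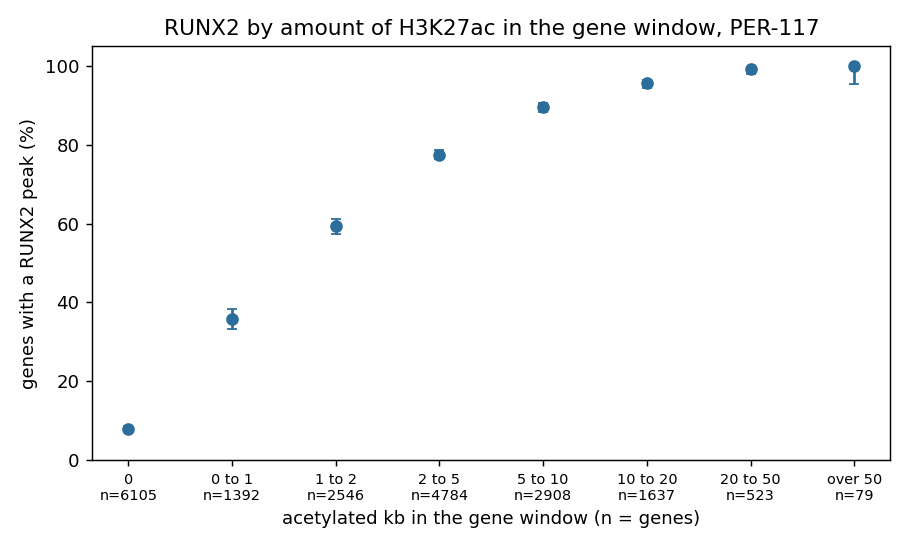
Share of genes with at least 1 RUNX2 peak in the window (y, %, bars are Wilson 95% intervals) by the acetylated kb in the same window (x, number of genes under each group). The share climbs from 7.94% with no H3K27ac to 100% in the 79 genes with over 50 kb.

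The 2 marks usually met at the same place. Each RUNX2 peak was represented by its summit of highest fold enrichment, and 1774 peaks had several. Of these 21027 summits, 15899 (75.6%) lay inside an H3K27ac region. That is 209 summits per Mb of H3K27ac against 1.74 per Mb outside it. Inside gene windows H3K27ac covered 4.16% of the bases and held 12974 summits, 210 per Mb, while the remaining bases held 2.52 per Mb. Of the 10477 genes with both marks, 9607 (91.7%, 91.2 to 92.2) had at least 1 RUNX2 summit inside H3K27ac, which is 48.1% of all genes, and in 7513 (71.7%) every RUNX2 peak did. The remaining 870 had no RUNX2 summit inside H3K27ac, and whether the flank of a peak overlapped a region was not counted. They held a single RUNX2 peak in 81.4% of cases and a median of 1.86 kb of H3K27ac, and their strongest summit lay a median of 1537 bp from the nearest region.

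Acetylated summits sat inside their regions rather than at the rim. The holding region had a median width of 2514 bp, the median distance to the nearer edge was 843 bp, and 75.2% of these summits lay in the middle 50% of the region. Of the 5128 summits outside H3K27ac, 28.7% lay within 500 bp of a region and 4.23% in a gap of at most 500 bp between 2 regions. Another 45.5% were more than 10 kb from any region and 19.3% more than 50 kb. Summits outside H3K27ac thus lay both close to a region and far from any.

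**Figure D3:**
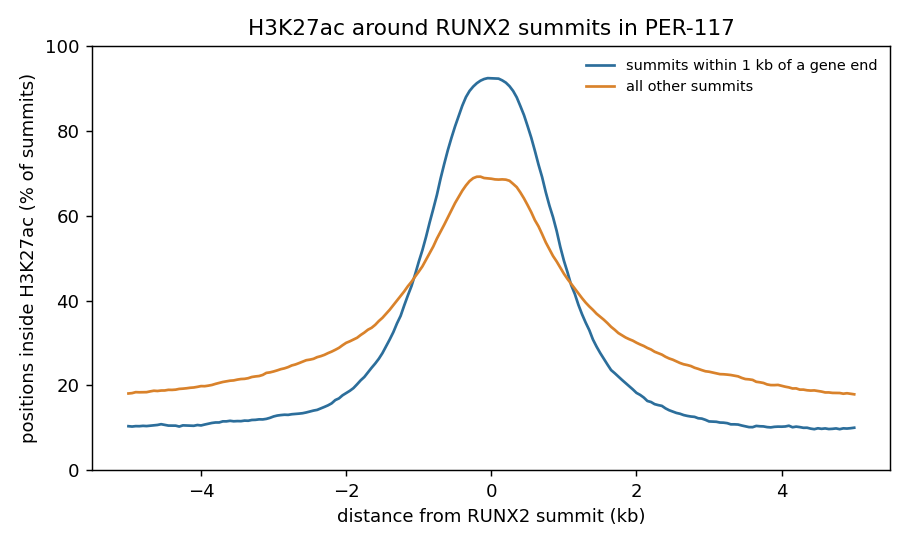
Share of RUNX2 summits (y, %) for which the position at a given distance (x, kb) lies inside an H3K27ac region, for summits within 1 kb of a gene end and for all others. Both curves are highest around the summit, with 92.4% and 68.7% at the summit itself, and at 2 kb the order has turned, with about 18.2% at gene ends and 30.1% elsewhere.

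H3K27ac reached farther around summits away from gene ends. Positions 1 kb to the right of the summit were acetylated for 49.4% of gene-end summits and 46.3% of others, and at 5 kb for 10.0% and 17.9%. By place, 92.4% of 6138 gene-end summits were acetylated, 70.6% of 8551 summits inside genes and 66.2% of 6338 outside protein-coding genes. Acetylation was somewhat more frequent at the strongest than at the weakest RUNX2 peaks. It was 73.8% in the weakest 10% of peaks and 78.0% in the strongest, and away from gene ends 64.8% and 74.0%. The share at gene ends fell from 33.6% to 20.5% over the same range, so the strongest RUNX2 peaks were the ones least often at a gene end.

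Seen from the H3K27ac list, most regions held no RUNX2. A summit lay in 12841 of 53263 regions, 24.1% (23.7 to 24.5), and 2346 of those regions held more than 1. The share depended on width: 0.911% in the narrowest 20% of regions and 66.6% in the widest. Counted per Mb, the widest 20% held 228 summits, the next 265 and the narrowest 31.6. The fold enrichment of H3K27ac among the widest 20% had a median of 6.20 in regions with a RUNX2 summit and 4.38 in those without, and among the regions of middle width 3.38 and 2.77. Regions with a summit were also wider within these groups, with medians of 3399.5 against 2752 bp and 904 against 805 bp. In the widest group 73.3% of regions at a gene end held RUNX2, and 62.5% of those away from one.

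The regions with most RUNX2 summits held 9 each. On chromosome 6 the region (26020069 to 26058718) covered H4C1, H4C2 and H3C2 in the histone gene cluster. The other lay on chromosome 17 near SUPT4H1, a transcription elongation factor (58327751 to 58346773). A region of 6821 bp inside GSE1 held 8 summits. Regions with 7 overlapped USP20, a deubiquitinase, and CSK, the kinase that restrains LCK. Another with 7 had its midpoint 160687 bp from an end of ETS2, an ETS factor. These regions were picked by their summit counts.

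Around gene starts the marks had different shapes. H3K27ac covered 49.9% of 22132 annotated starts of 15812 protein-coding genes at 100 bp past the start, and was wide and slightly displaced into the gene. RUNX2 summits formed a narrow peak just before the start, with 46.1 acetylated summits per 1000 starts in the 100 bp around −100 bp, against 1.45 at 5 kb before the start. Promoter windows ran from 250 bp before to 50 bp after the start. Starts of 1 gene and divergent genes can share a summit. In all, 2800 windows (12.7%) held a RUNX2 summit and overlapped H3K27ac, 56 (0.253%) held a summit without H3K27ac, 8512 (38.5%) had H3K27ac without a summit and 10764 had neither.

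**Figure D4:**
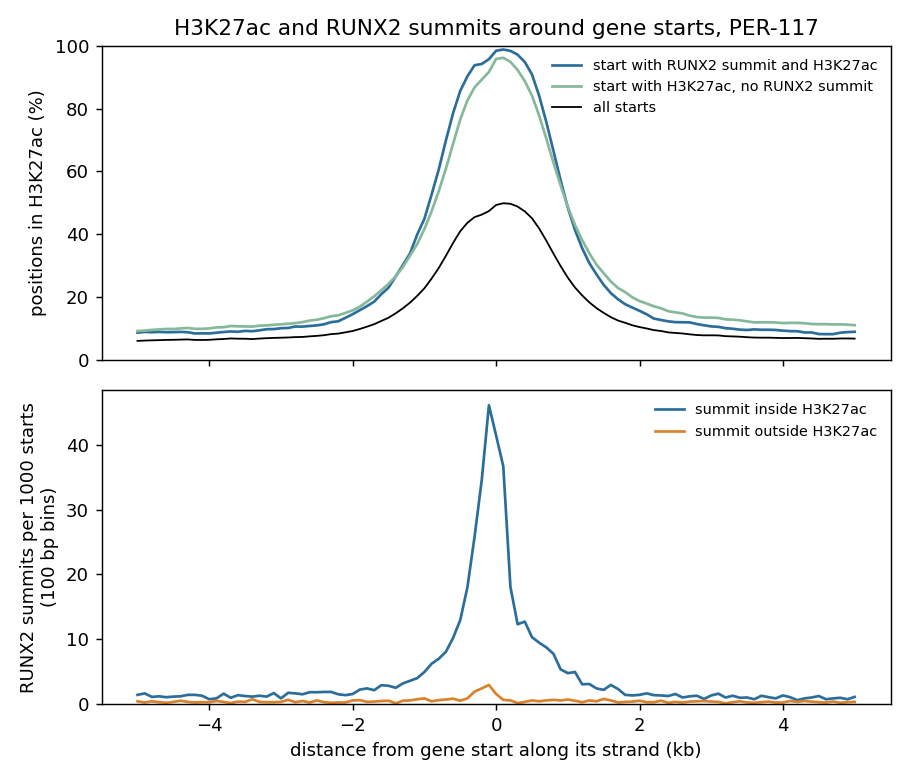
Upper panel: share of positions inside H3K27ac (y, %) by distance from the gene start along its strand (x, kb), for starts with both marks, with H3K27ac alone in the promoter window and for all starts. Lower panel: RUNX2 summits per 1000 starts in 100 bp bins, inside and outside H3K27ac, with a peak of 46.1 at −100 bp for acetylated summits and 2.98 for the others.

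The RUNX element TGTGGT, on either strand, stood in 11.3% of all 22132 promoter windows. The share was 35.7% (24.5 to 48.8) of the 56 windows with a summit and no H3K27ac, 16.3% (14.9 to 17.7) of the 2800 with both, 7.60% (7.06 to 8.18) of the 8512 with H3K27ac only and 12.8% (12.1 to 13.4) of those with neither. The variant TGCGGT showed the same order for the first 3 groups, with 37.5%, 20.1% and 7.59%, and stood in 6.11% of windows with neither. TGGTGT, the core read in reverse letter order and used as a yardstick of base composition for TGTGGT, stood in 8.93%, 9.11%, 7.92% and 11.6%. The element CGGAAG of ETS factors stood in 25%, 47.4%, 31.7% and 11.2%, and in 23.7% of all windows. TGCGGT and CGGAAG hold the pair CG and TGGTGT does not, so it is no yardstick for them. The median number of CG pairs per 100 bp was 5.5, 8.33, 9 and 3 in the same order. Each element was searched separately on both strands, and matches of different elements that share end bases were each counted.

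These groups differ in base composition, with median GC contents of 58.5%, 63.3%, 66.7% and 57.3%. Within each of 5 equal groups of windows by GC content, TGTGGT was more frequent with both marks than with H3K27ac only: 41.6% against 16.3% in the group of lowest GC, then 20.2% against 10.7%, 15.2% against 8.05%, 12.2% against 5.74% and 9.88% against 4.70%. The 56 windows with a summit and no H3K27ac were too few to order against those with both at like GC. They held TGTGGT in 5 of 8, 12 of 21, 1 of 12 and 2 of 15 windows from the lowest GC group to the fourth, with none in the fifth group, and TGCGGT in 3, 4, 4 and 10 of them. From lowest GC upwards, TGTGGT stood in 62.5%, 57.1%, 8.33% and 13.3% of these windows, against 41.6%, 20.2%, 15.2% and 12.2% with both marks. TGCGGT stood in 37.5%, 19.0%, 33.3% and 66.7%, against 13.6%, 21.2%, 18.6% and 21.6%. Most of these shares were higher without H3K27ac, but not all, and the 8.33% is 1 of 12 windows. The position of matches relative to summits was counted as well. In windows with both marks 306 of 520 TGTGGT matches (58.8%) and 373 of 599 TGCGGT matches (62.3%) lay within 50 bp of a RUNX2 summit, while 31.5% of the positions did. For TGGTGT the share was 37.8% and for CGGAAG 36.8%. A match is a run of letters and not a shown binding event.

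Genes with the most RUNX2 peaks were long genes with broad acetylation. GSE1, a component of a histone deacetylase complex (chromosome 16, 85169512 to 85676200, hg38), held 27 RUNX2 peaks, 24 of them acetylated, and 100.3 kb of H3K27ac. SEPTIN9, a cytoskeletal septin, had 18 peaks, all acetylated, in a window of which 51.2% was H3K27ac. CHST11, a chondroitin sulfotransferase, had 17 (16 acetylated), MAML3, a NOTCH coactivator, 17 (15), HIVEP3, a zinc finger protein that restrains RUNX2 in bone, 16 (13), ITPR1, a calcium channel of the endoplasmic reticulum, 15 (15) and RUNX1 15 (13). PTPRD and PTPRN2, both receptor phosphatases, had 19 and 15 in windows of which only 2.93% and 6.06% was acetylated, with 12 and 11 acetylated summits. MAD1L1, a spindle checkpoint protein, held 18 peaks of which 14 were acetylated, and its strongest, with a fold enrichment of 29.8, lay 20048 bp outside H3K27ac.

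By acetylated length, MSI2, which regulates translation in blood stem cells, led with 166 kb in 114 regions and 14 RUNX2 peaks, 12 of them acetylated. ZMIZ1, a coactivator of NOTCH1, followed with 149 kb and 11 peaks, all acetylated, and CLEC16A, a mitophagy factor, with 125 kb and 14, all acetylated. After SEPTIN9 (122 kb) and CHST11 (121 kb) came RPTOR, the scaffold of mTORC1, with 118 kb and 12 peaks, IQSEC1, an exchange factor for ARF proteins, with 113 kb and 14 peaks, HIVEP3 with 102 kb, and VAV3, a guanine nucleotide exchange factor, with 101 kb and 6. Among these genes the order by RUNX2 peaks was not the order by acetylated length.

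By density, small genes in gene-rich stretches stood first, and these share peaks with their neighbours. The histone gene H4C2 had 2.94 acetylated RUNX2 peaks per 10 kb of window, and H4C1, H3C2, H2AC20 and H2AC21 had 2.45, 2.44, 2.44 and 2.44. CDK9, the kinase of the elongation factor P-TEFb, had 7 peaks, all acetylated, at 2.83 per 10 kb. Their fold enrichments were 11.7, 6.07, 2.25, 18.7, 2.76, 4.71 and 9.21 in genomic order, and the strongest lay 2704 bp from a gene end. LYL1, an oncogenic factor of early T-cell leukemias, had 6 peaks, all acetylated, at 2.52 per 10 kb, and 74.7% of its window was H3K27ac. The fold enrichments across LYL1 were 3.30, 6.37, 16.6, 6.15, 4.95 and 8.84. VAMP2, LIAT1 and the immediate early gene IER2 had 2.52, 2.46 and 2.45 per 10 kb.

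Among the 485 genes with RUNX2 alone, the strongest peak had a fold enrichment of 38.8 and lay inside COL4A2, a basement membrane collagen (chromosome 13, peak at 110421591 to 110422341), 193510 bp from the nearest H3K27ac. Its other 2 peaks had 4.26 and 2.86. Single strong peaks stood at IL20RA, a cytokine receptor chain (33.4), FBP2, a gluconeogenic enzyme of muscle (30.8), ARHGEF12, a guanine nucleotide exchange factor (30.0), RXRG, a retinoid receptor (29.1), SPDYE3 (28.3), AGTRAP, an angiotensin receptor partner (28.0), JCAD, an endothelial junction protein (26.4), and NHSL2 (26.0). SLC2A12, a glucose transporter, had 2, the stronger with 30.9. The ARHGEF12 peak was the most remote of these, 615047 bp from H3K27ac, and the SPDYE3 peak the nearest at 17027 bp. Over all 485 genes, the nearest summit lay a median of 63930 bp from H3K27ac, and in 64 genes within 20 kb. GRK1, a receptor kinase, PTAFR, the receptor for platelet-activating factor, and SPNS2, the exporter of sphingosine 1-phosphate, each held 4 peaks with no acetylated base, and CDHR3 and CELSR1, both of the cadherin superfamily, held 3. Of the 485 genes, 88 (18.1%) had RUNX2 within 1 kb of a gene end, against 61.1% of the genes with both and 32.5% of all genes.

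Genes with H3K27ac alone were mostly weakly acetylated, but some carried broad regions. ADGRG1, an adhesion receptor (chromosome 16, 57619738 to 57665567), had 35.8 kb of H3K27ac in 22 regions, 54.3% of its window, and no RUNX2 peak. CPNE2, a copine on the same chromosome, had 26.8 kb, SMAD6, an inhibitor of BMP signalling, 23.2 kb, LIF, a cytokine of the interleukin 6 family, 22.7 kb, and NHSL3 20.9 kb. AP1B1, a clathrin adaptor subunit, had 19.6 kb, CRTC3, a CREB coactivator, 18.8 kb and GPSM1, a G-protein regulator, 18.3 kb. The histone genes H2AC8 and H2BC8 were covered to 90.1% with 18.5 kb each, LIF to 86.2%, SOX18, an endothelial factor, to 74.04% and CASTOR1, an arginine sensor, to 62.6%. Of these 12 genes, SMAD6 alone kept this class when the windows were extended by 50 kb. Over all 3392 genes the median distance from the window to the nearest summit was 27249.5 bp, with 902 windows (26.6%) within another 10 kb and 1141 (33.6%) farther than 50 kb.

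The gene lists below are read against the shares over all genes. These were 52.5% with both, 2.43% with RUNX2 alone, 17.0% with H3K27ac alone and 28.1% with neither. The medians over all genes were 1.98 kb of H3K27ac and 1 RUNX2 peak per gene. Lists with more H3K27ac would hold more RUNX2 by the relation above, and the part of this in the counts was not tested. Window lengths differed as well, and their part was not tested either. The median window was 44.2 kb over all genes, 204 kb for KMT2A-fusion targets and 167 kb for RUNX genes and CBFB. It was 22.9 kb for olfactory receptors and 20.5 kb for clustered histone genes.

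All 4 genes of the RUNX family and CBFB had both marks, with a median of 8 RUNX2 peaks. At RUNX1 (chromosome 21, 34787801 to 35049302), the 15 peaks ran from a fold enrichment of 3.32 to 39.4. The strongest, at 35026610 to 35027325, lay 22410 bp inside the gene, and the 2 outside H3K27ac had 18.4, only 194 bp from a region, and 4.63. RUNX2 itself (chromosome 6, 45328330 to 45551082) had 12 peaks from 4.27 to 9.63, all acetylated, in 65.2 kb of H3K27ac, so none of its sites reached the strongest ones at RUNX1 and RUNX3. RUNX3 had 4 peaks, with 32.8 at 7 bp from a gene end and 16.9 at 1374 bp outside H3K27ac. CBFB, the partner subunit, had 2, of which the stronger (9.10) was not acetylated and the weaker (4.69) was. Of 14 RUNX cofactors, 13 had both: the corepressors HDAC4 and TLE4 held 8 and 6 peaks, CBFA2T3, a corepressor first found in leukemia, 4 peaks up to 37.2, and the acetyltransferase genes CREBBP and EP300 4 and 1. SUV39H1, a histone methyltransferase, had H3K27ac alone, 1.84 kb.

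**Figure D5:**
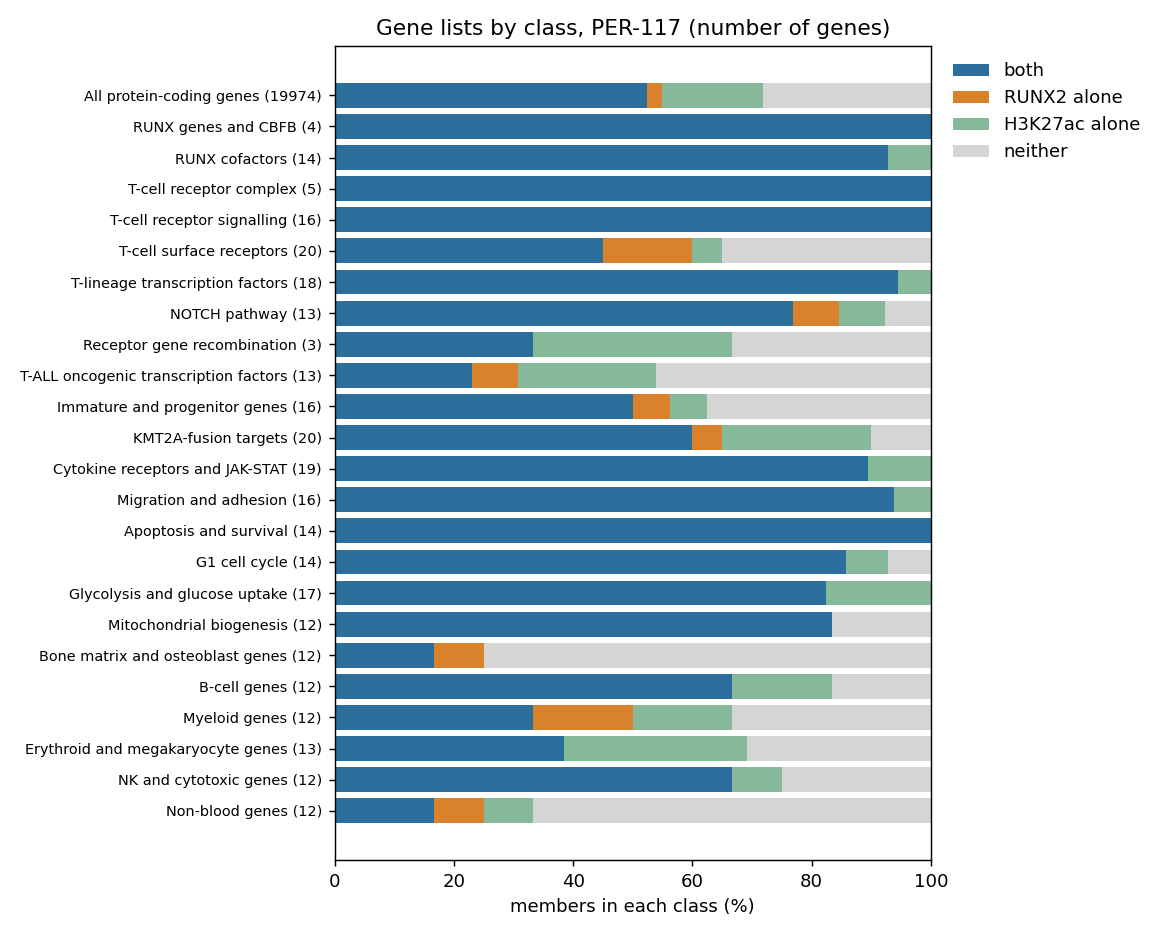
Share of the members of each gene list (x, %) in each of the 4 classes, with the number of genes in brackets and all protein-coding genes on top. The lists of RUNX genes, T-cell receptor complex, T-cell receptor signalling and survival genes lie wholly in the class with both marks, and most bone and non-blood genes lie in neither.

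All listed genes of the T-cell receptor complex and its signalling had both marks in windows with 10 kb added. The 5 of the complex were CD3D, CD3E, CD3G, CD247 and PTCRA. They ran from CD247, the zeta chain, with 5 peaks up to 26.3 in 26.3 kb of H3K27ac, to CD3D with 1 peak of 6.14. CD3G held 0 peaks in its span, and its strongest peak was that of CD3D. With 0 kb added, or with each peak and region counted for 1 gene only, CD3G had H3K27ac alone. In these settings 4 of the 5 had both. At CD3E the 2 peaks had 5.87 at 19 bp and 23.5 at 622 bp from a gene end, both acetylated. All 16 signalling genes had both, each with at least 1 acetylated summit, with a median of 3.5 peaks and 20.3 kb of H3K27ac. LCK, the kinase that starts receptor signalling, and its inhibitor CSK each had 7 peaks, all acetylated. LCP2, an adaptor, had a peak of 34.4, the phosphatase gene PTPRC 33.8, PRKCQ, a kinase, 26.6 and GRAP2, an adaptor, 25.8 in 63.1 kb of H3K27ac. At PLCG1, a phospholipase, 3 of 6 summits lay outside H3K27ac.

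T-cell surface receptors were split. Of 20, 9 had both, 3 RUNX2 alone, 1 H3K27ac alone and 7 neither, and the median H3K27ac was 0.413 kb. CD96 had 5 peaks up to 22.2, CD28, the costimulatory receptor, 4 (10.4, 11.5, 5.39 and 4.27, all acetylated), CD7, an early T-lineage marker, 3 and CD2 1 of 16.6. The coreceptor CD4 had 1 peak of 3.75 at 4990 bp outside H3K27ac. CD8A and CD8B share a window stretch with 2 peaks up to 7.77 and no acetylated summit, which put CD8A in RUNX2 alone and CD8B, with 0.826 kb of H3K27ac, in both. CD38, an ectoenzyme, had 2 peaks up to 11.5 and no H3K27ac, as had CD1A with 1. CD27, a TNF receptor family member, had 9.59 kb of H3K27ac and no RUNX2. CD5, CD6, CD1C, CD1D, CD1E, CTLA4 and TIGIT had neither mark. Of the recombination genes, RAG1 had both, RAG2 0.733 kb of H3K27ac alone and DNTT neither.

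Of 18 T-lineage transcription factors 17 had both. IKZF1 and IKZF3, Ikaros family factors of lymphocytes, had 10 peaks each, LEF1, a WNT effector, 7 and FLI1, an ETS factor, 6 up to 22.2. BCL11B and TCF7, which fix T-cell identity, had 3 each in 33.0 and 31.8 kb of H3K27ac. GATA3 had 2 weak peaks (4.52 and 4.25), 1 of them acetylated, and only 0.814 kb of H3K27ac. MYB had 10.8 kb of H3K27ac and no RUNX2 peak. In the NOTCH pathway 10 of 13 genes had both, led by NOTCH1 with 5 peaks up to 19.9 in 47.8 kb. DTX1, a NOTCH target, had 5, HES1, a repressor induced by NOTCH, 4, and the ligand gene DLL4 4. NRARP, a feedback inhibitor, had H3K27ac alone (6.12 kb), the ligand gene JAG2 RUNX2 alone (11.9) and JAG1 neither.

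The lists of oncogenic and progenitor genes were mixed. Of 13 T-ALL oncogenic factors 3 had both: LYL1, LMO2, an adaptor of LYL1 and TAL1 complexes, with 1 acetylated peak of 17.1 in 1.32 kb of H3K27ac, and OLIG2 with 1 of 8.71. At LMO2 and OLIG2 both marks lay in the added 10 kb, with 0 peaks and 0 kb of H3K27ac in the span. With 0 kb added, only LYL1 kept both. LMO1 had RUNX2 alone (3.14), TAL1, HOXA9 and HOXA10 held 0.429, 0.914 and 0.808 kb of H3K27ac alone, and TAL2, LMO3, TLX1, TLX3, NKX2-1 and NKX2-5 had neither. Of 16 immature and progenitor genes 8 had both. CD34, the stem cell antigen, had 4 acetylated peaks up to 23.8 in 21.1 kb, ERG, a stem cell ETS factor, 5 acetylated peaks (4.08, 9.31, 4.13, 8.80 and 8.77) in 39.1 kb, and IGF1R, a growth factor receptor, 9 peaks up to 12.9, 8 of them acetylated. ZEB2, a zinc finger repressor, had 2 peaks and 6.60 kb of H3K27ac with no acetylated summit. KIT, a stem cell receptor, had RUNX2 alone (3.75), and MEF2C, MN1, BCL11A, CEBPA, MEIS1 and PROM1 neither. Of 20 KMT2A-fusion targets 12 had both, among them CDK6 (6 peaks, 87.2 kb of H3K27ac), BCL2, MBNL1 and JMJD1C. HOXA5, HOXA7, HOXA9, HOXA10 and SENP6 had H3K27ac alone, and at the 4 HOXA genes this lay in the added 10 kb and not in the gene, with 0 kb in the span. IGF2BP2 had RUNX2 alone (4.38).

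Cytokine, migration, survival and cell cycle genes mostly had both marks. Of 19 cytokine receptor and JAK-STAT genes 17 did. STAT3 had 8 peaks (5 acetylated), the interleukin 2 receptor gene IL2RA 6, and STAT5A, the signal inhibitor CISH and IL21R 5 each, all acetylated in those 3. IL7R, the receptor of a T-cell growth factor, had peaks of 4.74 and 15.6, both acetylated. JAK2 (2.67 kb) and IL10RA (1.25 kb) had H3K27ac alone. Of 16 migration genes 15 had both: SELPLG, the selectin ligand, had 8 peaks, ITGA6, an integrin chain, 7 of which 4 were acetylated, RAC2, a blood cell GTPase, 5 up to 24.5, and CXCR4, the marrow homing receptor, 3 acetylated peaks (7.75, 6.07 and 5.39) within 1064 bp of a gene end. ITGB1 had H3K27ac alone (4.01 kb). All 14 survival genes had both, with CFLAR, an inhibitor of death receptor signalling, highest at 45.8, BCL2L1 at 6 peaks in 55.9 kb and BCL2 at 6 peaks, of which the single unacetylated summit was 60 bp from a region. At BCL2L11, a killer of lymphocytes, the 1 peak (8.54) was outside H3K27ac. Of 14 G1 cell cycle genes 12 had both, CCND3, the main D cyclin of T cells, with 11 peaks up to 33.6 in 37.9 kb. CDKN1A had H3K27ac alone (5.51 kb) and CCND1 neither.

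Most metabolic genes carried both marks, with a median of 2 RUNX2 peaks in either list. Of 17 glycolysis genes 14 had both, SLC2A1, a glucose transporter, and HK2, a hexokinase, with 5 peaks each, while GPI, PFKL and SLC2A3 had H3K27ac alone. Of 12 genes of mitochondrial biogenesis 10 had both. PRKAA1, an AMPK subunit, had 4 acetylated peaks up to 29.8 and TFAM, which packages mitochondrial DNA, 2 up to 27.2, 1 of them acetylated. NRF1, a factor for mitochondrial genes, had 3 peaks and none acetylated. PPARGC1A and PRKAA2 had neither.

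Genes of other lineages varied. Of 12 bone genes 2 had both, SP7, the osteoblast factor acting after RUNX2, with 2 acetylated peaks up to 6.37 in 4.06 kb, and BGLAP, osteocalcin, with 1 of 4.33. COL1A1 had RUNX2 alone (4.18) and the other 9, among them SPP1, IBSP, MMP13 and ALPL, neither. Of 12 B-cell genes 8 had both, with 5 acetylated peaks at IGLL1, a surrogate light chain, and 3 at CD79A, and of 12 NK and cytotoxic genes 8, with 5 at NKG7 up to 16.5. Among 12 myeloid genes CD33, CSF3R, CEBPE and LYZ had both, ELANE and CSF1R RUNX2 alone and CD14 and PRTN3 H3K27ac alone. Of 13 erythroid and megakaryocyte genes 5 had both, with the highest fold enrichment of all list members, 59.8, at NFE2, and HBA1, HBA2, GP9 and ALAS2 had H3K27ac alone. Of 12 non-blood genes GFAP and CDH1 had both, with 1.72 and 1.35 kb of H3K27ac, and MYH6 had RUNX2 alone (3.70).

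Gene families recognised by their symbols spanned the full range. Both marks stood at 73 of 85 cytosolic ribosomal protein genes (85.9%), 65 of 77 mitochondrial ribosomal protein genes, 34 of 40 proteasome genes, 30 of 37 complex I genes and 63 of 76 clustered histone genes. These families carried a median of 1 RUNX2 peak, or 1.5 for the histone genes, whose windows overlap. Genes named ZNF were near the share of all genes, with 293 of 517 (56.7%), and so were solute carriers, with 202 of 386 (52.3%). Protocadherin clusters had H3K27ac alone at 44 of 53 genes and both at 0, and HOX clusters H3K27ac alone at 22 of 40 and both at 4. The other 9 protocadherin genes had neither mark. Windows of neighbouring protocadherin genes can overlap, so 1 region can count for several of them. Their median H3K27ac was 0.536 kb and their median window 130 kb. Olfactory receptors had neither mark at 359 of 392 genes (91.6%), keratin-associated proteins at 80 of 94, keratins at 45 of 55 and bitter taste receptors at 23 of 25.

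By chromosome, the share of genes with both ran from 28.7% on X to 61.5% on chromosome 19. X also held the fewest RUNX2 peaks per 100 genes, 49.9, and chromosome 13 the most, 175. These rates divide all peaks of a chromosome, also those in no gene window, by its protein-coding genes. Those numbered 848 on X and only 338 on chromosome 13, so the rates depend on gene number as well. The acetylated share of summits varied less, from 69.8% on chromosome 13 to 81.9% on chromosome 19, and was 79.0% on X.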

How the data were processed

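RUNX2 and H3K27ac were mapped by ChIP-seq in PER-117, 1 library each. Fragments were 200 to 300 bp long, per the labels' protocols. STAR (2.4.2a), MACS2 and the build hg38 appear in the submitters' processing notes, without role, parameters or thresholds. Each line deposited by the authors has a display score. It also has a linear ratio (the fold enrichment) and the −log10 of p and of q, as deposited. The deposited score equalled 10 times the −log10 q without its decimals in all 23043 RUNX2 lines and 53313 of 53316 H3K27ac lines. The deposited −log10 q reached down to 1.30 in the RUNX2 list and 1.01 in the H3K27ac list. The last deposited column gives the summit of a RUNX2 line and is 100 throughout the H3K27ac list, where it was not used. Peak names carry different prefixes in the 2 lists, with no key to them.

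Identical RUNX2 intervals were joined and kept the summit of highest fold enrichment, which left 21027 intervals, and 40 RUNX2 and 53 H3K27ac lines on other sequences were set apart. The gene spans are those of RefSeq on GRCh38.p14, and 15812 of 19974 protein-coding genes had a promoter sequence there. A mark was counted from 1 shared bp. Each comparison is a description: no test, replicate or random placement was used. Counting used pandas 2.3.3 and numpy 2.4.6 under Python 3.11.15, with scipy 1.17.1 for correlations and matplotlib 3.10.9 for plots. The code was tested on simulated data against direct counting. The members, the 23 gene lists (296 genes) and 16 families were chosen with earlier results of these data known. The naming rule, which leaves out chromosome 8, took from the class both the 10 genes each with most RUNX2 peaks, most acetylated bases and most acetylated peaks per 10 kb, from RUNX2 alone the 10 of highest fold enrichment and 5 with most peaks, from H3K27ac alone the 10 with most acetylated bases and 5 with the largest share, and from each list all members of a class with up to 5 and otherwise the 4 with most RUNX2 peaks or acetylated bases. Peaks at single loci, the regions with most summits, CD1A's promoter and further list members were chosen after their values were seen. Alternatives covered the window, thresholds of both lists, the minimum H3K27ac, the use of summits, a margin around H3K27ac and assignment to 1 gene. Some members that this rule names are not reported here.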

Additional observations from a re-analysis of the deposited data

How the results depend on the processing

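The class RUNX2 alone, 485 genes, held 236 when RUNX2 had to reach a −log10 q of 10, 728 when only the top 5000 RUNX2 peaks and the top 10000 H3K27ac regions counted, 983 when 1000 acetylated bases were required and 789 when each peak and region was counted only for the gene with the nearest end among those whose window it reached. The class both, 10477 genes, fell to 6982 and 3160 in the first 2 of these settings, and H3K27ac alone, 3392 genes, rose to 6887 and 6771 in them and was 2040 with windows extended by 50 kb. The other settings for these 3 counts stayed within 1.5 times the count reported, with 7648 to 14145 genes in both. Similar counts hid a change of members: of the 485 genes with RUNX2 alone, 287 kept that class with 0 kb added and 219 with 50 kb. The share of summits inside H3K27ac, 75.6%, was 78.4% with the stricter RUNX2 list, 49.3% with the strongest peaks and regions, 74.0% with H3K27ac of −log10 q of 2 or more and 82.6% with a margin of 500 bp. Shortening a list can only lower its own counts. Of 23 gene lists, 19 changed their count of members with both by over 1.5 times with the strongest peaks and regions, 7 with 0 kb added, 6 with 50 kb, 7 with the stricter RUNX2 list, 5 with the nearest gene end and 0 in the other 3 settings. With 0 kb and 50 kb, T-cell surface receptors with both numbered 5 and 15 against 9, myeloid genes 1 and 10 against 4, and bone genes 0 and 4 against 2. COL4A2, IL20RA, ARHGEF12, AGTRAP and JCAD remained in RUNX2 alone in all 8 settings for classes. They were named for their high RUNX2 fold enrichment, which favours keeping the peak in the stricter RUNX2 settings. Asking for stronger or more H3K27ac cannot move a gene out of this class, and all 485 kept it in those settings. No paired analysis was possible because each antibody has 1 library. Depth is unknown, so genes without a mark may hold weaker sites.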
